A study of Mus musculus with 8 samples.

Results

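The mitochondrial protein import machinery was taken as the genes named Timm or Tomm followed by a number, with names of pseudogenes left out. The rule took 24 of the 24547 genes in the deposited table, and their transcripts were compared between livers of mice given a plant decoction and livers of control mice. Both groups were mice of the outbred ICR strain, with 4 libraries each. The treated group was given Psoraleae Fructus decoction at high dose (a water extract of fruits of Psoralea corylifolia) into the stomach for 30 days. The labels call the other group control and name saline as the other agent given. The series is concerned with liver damage by this preparation, and its labels give no dose by mass, age, sex or hour of collection. Nothing ties a library to an animal, and the p-values therefore cover only variation among libraries, which may be technical.

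Nearly all mitochondrial proteins are made in the cytosol and brought in through complexes of the outer and inner membranes. The TOM complex of the outer membrane holds receptors, the Tomm40 pore and small subunits that steady it. Behind it, the TIM23 complex takes proteins with a cleavable presequence into the matrix, the small TIM chaperones carry hydrophobic proteins across the intermembrane space, and the TIM22 complex inserts carrier proteins into the inner membrane. Hepatocytes are rich in mitochondria and depend on this supply for fatty acid oxidation, the urea cycle and respiration.

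Of the 24 members, 22 had enough counts to be tested. Tomm20l had 0 counts in every library, and Tomm6os, an RNA gene on the strand opposite Tomm6, had 0 to 2 counts per library. Each tested gene was compared by edgeR's quasi-likelihood test, and a gene was called where its p, adjusted by Benjamini-Hochberg over all 12861 genes tested, was under 0.05. Of the 22 tested members, 4 were called higher in treated livers (Tomm7, Timm13, Timm8a1 and Timm10) and 0 were called lower. Over all genes tested, 5.46% were called higher and 3.75% lower, 9.21% in all. At an unadjusted p under 0.05, 10 members stood higher and 0 lower, against 1809 higher and 1968 lower of all 12861 genes tested. Neither DESeq2 nor limma-voom called any member lower.

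The promoters of Timm13, Timm8a1 and Timm10 are shown because these called genes all encode small TIM chaperones, next to that of Timm8b, the uncalled paralogue of Timm8a1 with the highest transcript level among the members. Each window runs from 250 bases before to 50 bases after the start site in RefSeq on GRCm38.p6, where 19 of the 22 tested members had a match (all but Tomm7, Timm21 and Tomm40l). They lie at chr10:80900920-80901219 on the minus strand (Timm13), chrX:134541621-134541920 on the minus strand (Timm8a1), chr2:84826771-84827070 on the plus strand (Timm10) and chr9:50603651-50603950 on the plus strand (Timm8b). Capitals mark exact matches on either strand to 5 motifs, namely the NRF1 palindrome, ETS (CCGGAAG), YY1 (AAGATGGC), CRE (TGACGTCA) and E-box (CACGTG).
Timm13: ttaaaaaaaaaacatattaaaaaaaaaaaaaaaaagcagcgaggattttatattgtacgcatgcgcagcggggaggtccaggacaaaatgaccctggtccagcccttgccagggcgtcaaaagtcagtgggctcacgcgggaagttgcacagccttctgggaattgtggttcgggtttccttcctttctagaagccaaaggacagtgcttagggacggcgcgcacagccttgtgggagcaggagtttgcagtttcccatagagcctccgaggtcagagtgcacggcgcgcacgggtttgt
Timm8a1: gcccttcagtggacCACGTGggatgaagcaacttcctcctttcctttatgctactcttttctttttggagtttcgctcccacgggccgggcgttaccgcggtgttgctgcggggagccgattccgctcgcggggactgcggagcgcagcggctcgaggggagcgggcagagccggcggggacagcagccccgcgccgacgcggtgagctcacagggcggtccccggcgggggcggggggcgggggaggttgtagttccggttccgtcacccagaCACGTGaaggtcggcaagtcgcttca
Timm10: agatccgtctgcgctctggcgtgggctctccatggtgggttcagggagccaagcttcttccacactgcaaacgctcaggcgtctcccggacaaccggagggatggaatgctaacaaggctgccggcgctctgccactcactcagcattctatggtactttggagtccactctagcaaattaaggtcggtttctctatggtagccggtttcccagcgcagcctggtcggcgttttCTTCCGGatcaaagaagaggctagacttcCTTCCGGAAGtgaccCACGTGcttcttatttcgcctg
Timm8b: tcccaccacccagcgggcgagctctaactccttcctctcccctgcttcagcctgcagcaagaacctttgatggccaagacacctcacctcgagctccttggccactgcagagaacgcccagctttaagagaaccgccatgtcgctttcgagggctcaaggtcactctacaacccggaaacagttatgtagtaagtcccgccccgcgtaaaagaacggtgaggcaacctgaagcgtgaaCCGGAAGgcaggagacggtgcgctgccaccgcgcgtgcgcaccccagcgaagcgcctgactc
The windows of Timm8a1 and Timm10 both held the E-box, and no motif was in all 3 called genes shown. In Timm10 the reverse complement of the ETS motif began 16 bases before the start site, and a pair of overlapping ETS matches and an E-box followed it downstream. Timm8a1 held 2 E-box matches, Timm8b 1 ETS match and Timm13 none of the 5 motifs. The 19 members had 21 windows, of which 9 (in 8 genes) held the ETS motif. The E-box was in 4 windows (4 genes), the YY1 motif in 1 and the NRF1 or CRE motif in 0. Of all 32817 windows in the table, 8.86% held the ETS motif, 7.15% the E-box, 2.74% YY1, 0.966% NRF1 and 1.79% CRE. A match describes the letters only.

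Library totals ran from 15864399 to 20159132 counts. Albumin took 9.59% to 13.4% of the counts of each library, and all 6 hepatocyte markers were detected, none of them called. Control 2 held 1436 FPKM summed over 4 class II antigen presentation markers, against 160 to 519 in the other controls and 40.7 to 61.8 in treated libraries, and 3 of these 4 markers were called lower. Of 6 macrophage markers 2 were called lower, with sums of 164 to 466 FPKM in controls and 103 to 230 in treated libraries, and both tested T and NK cell markers (of 4) were called lower, with sums over the 4 of 2.28 to 5.06 and 0.732 to 1.47 FPKM. Of 4 endothelial and 4 stellate markers, 1 each was called lower. None of the markers of these lists was at 0 in all libraries. Control 4 stood near the treated livers in Dbp, a clock output gene, with 11.8 FPKM against 0.0574 to 0.654 in the other controls and 12.3 to 27.6 in treated libraries. Fits without controls 2 and 4 are given below, but they keep the class II and Dbp differences between the groups. The remaining controls 1 and 3 held 160 and 519 FPKM of the class II markers and 0.654 and 0.211 FPKM of Dbp. The part of these differences in the results below was not tested. In whole tissue, fewer cells of a type and less RNA per cell cannot be told apart.

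Levels are given as FPKM, counts scaled by gene length and library total, which allows genes to be set side by side. Summed over the 24 members, the level was 294, 302, 288 and 297 FPKM in controls 1 to 4 and 385, 379, 405 and 387 in treated libraries 1 to 4. The groups did not overlap, and the mean sum was 295 ± 6.04 FPKM in controls and 389 ± 11.3 in treated livers (SD, n = 4 each). Timm13 and Tomm7 together made up 44.2% of the difference of 93.5 FPKM, Timm8b 10.8% and Timm10 7.04%. The sum carries no correction for the trend of fold changes with gene length described below. In the fit corrected for that trend, the log2 fold change was 1.25 for Tomm7, 0.84 for Timm13, 0.15 for Timm10 and -0.22 for Timm8b. In the controls Timm8b ranked first with 46.8 ± 1.39 FPKM and Timm23 second with 34.6 ± 2.69. In treated livers Timm8b was still first, and Timm13 moved from rank 5 to rank 3 and Tomm7 from rank 12 to rank 4. Timm23 and Timm13, at 42.8 ± 2.91 and 42.8 ± 6.48 FPKM in treated livers, did not differ beyond their spread.

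**Figure D1:**
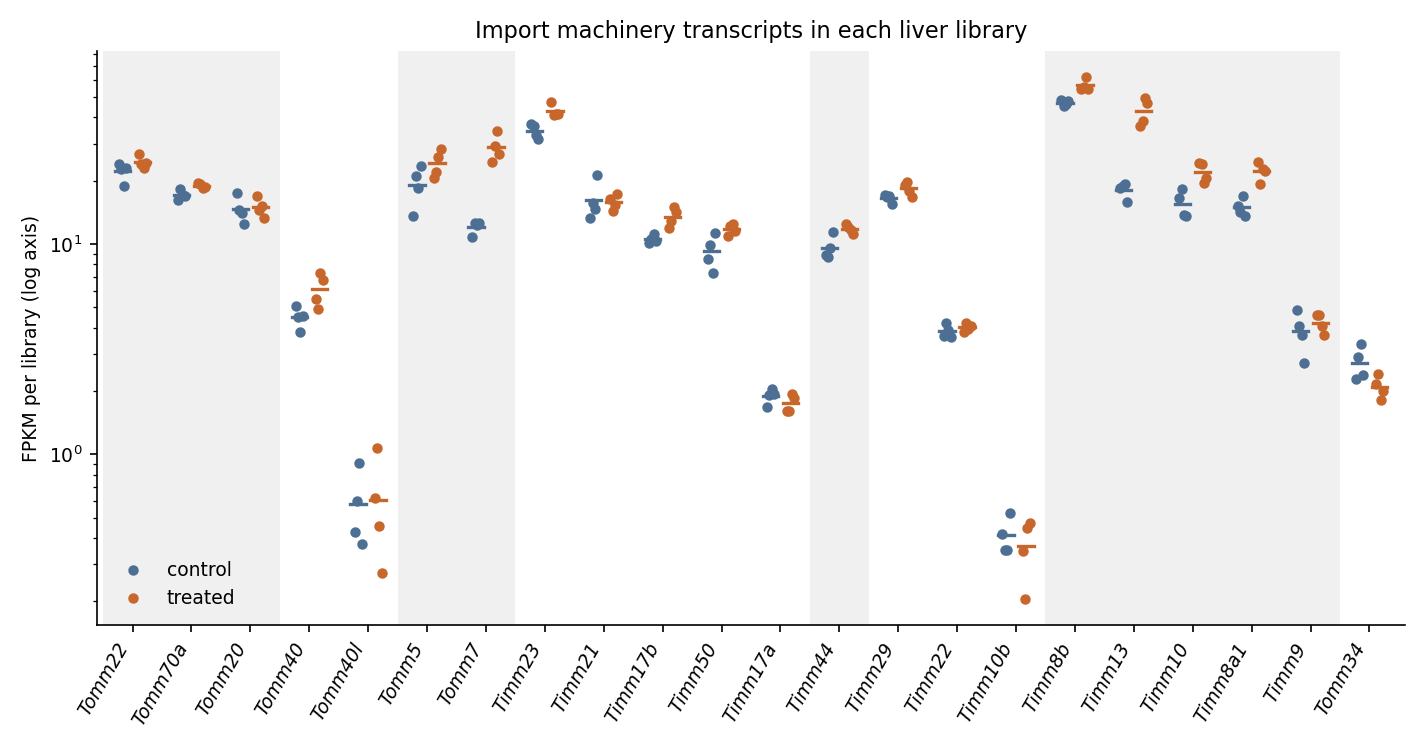
FPKM (log axis) of the 22 tested members in each library, grouped by role with shaded bands, with controls in blue, treated livers in orange and a line at each group mean. The treated points of Tomm7 (24.6 to 34.5) and Timm13 (36.3 to 49.8) lie clear above their controls, while most other members lie close together or overlap.

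Fold changes ran with gene length over the whole table, and this bears on a family with many short genes. Across all tested genes the rank correlation of the log2 fold change was -0.241 with length and 0.328 with GC content, given as a description since genes are not independent. With genes split into 10 equal groups by length, the median log2 fold change was 0.29 in the shortest group (up to 1576 nt) and -0.18 in the longest. That shortest group held 7 of the 22 members, including all 4 called ones. A second fit therefore carried an offset for each library's trend over length and GC content, and its values are called corrected below. The offset takes out such a trend whether it is technical or biological, and the origin of the trend was not tested. The corrected fit called 2.60% of all genes higher and 1.11% lower (3.71% in all). Among the members it called Tomm7, Timm13 and Tomm70a higher and 0 lower.

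**Figure D2:**
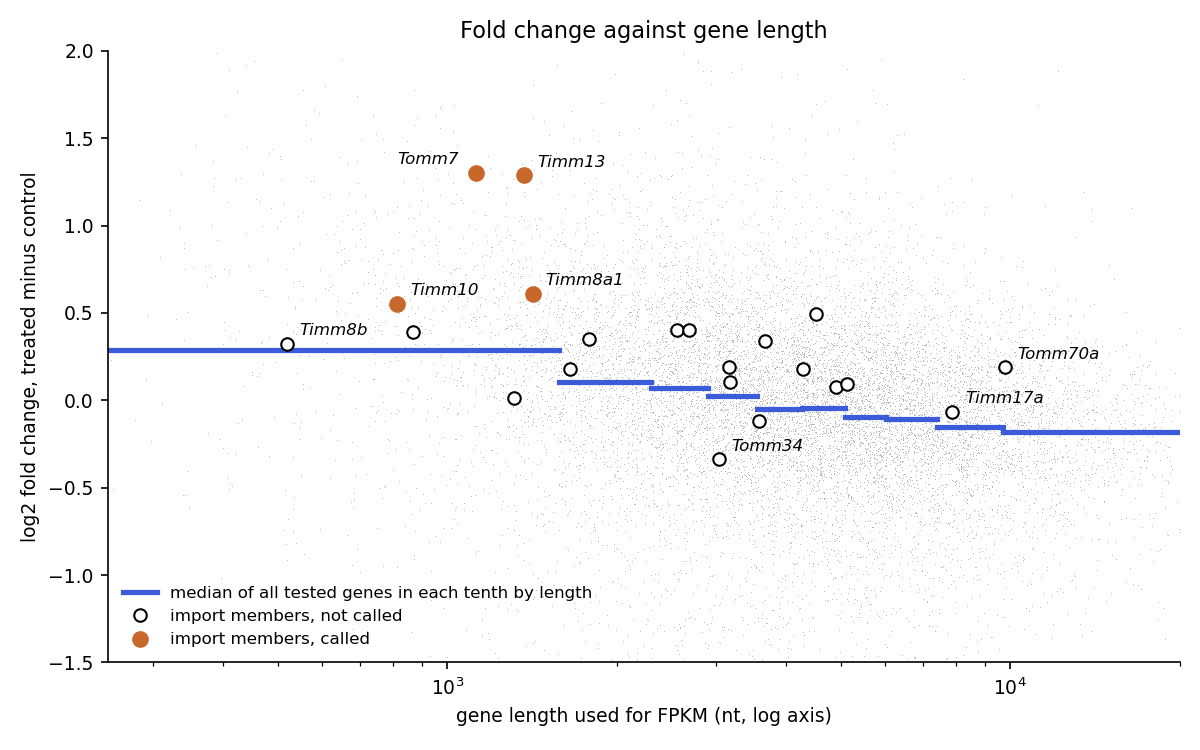
Log2 fold change (treated minus control) against gene length in nucleotides (log axis), with tested genes as grey dots (those beyond the axes are not drawn), medians of 10 equal groups by length as blue lines and members as circles. Tomm7 and Timm13 (1.30 and 1.29) lie far above the median of the shortest group (0.29), and Timm8b (0.32) lies near it.

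Among the small TOM subunits, Tomm7 rose and Tomm5 was not called. Tomm7 (chromosome 5, 23838944 to 23844161, minus strand, protein coding) encodes a small subunit that modulates the assembly of the TOM complex and helps to hold the kinase PINK1 at damaged mitochondria. Its level was 10.8, 12.6, 12.4 and 12.6 FPKM in controls 1 to 4 and 24.6, 29.4, 34.5 and 26.7 in treated libraries 1 to 4. Every treated library lay above every control, with a wide gap between the groups. The mean was 12.1 ± 0.863 FPKM in controls and 28.8 ± 4.25 in treated livers (SD, n = 4), and the log2 fold change was 1.30 (SE 0.14, edgeR adjusted p = 0.00266). The corrected log2 fold change of Tomm7 was 1.25 (SE 0.13, edgeR adjusted p = 0.00458), and it was called in all 23 alternative fits.

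Tomm5 has a length of 868 nt, near that of Tomm7 at 1125 nt. It stood at 13.6, 21.0, 18.4 and 23.6 FPKM in controls and 20.5, 22.1, 26.0 and 28.2 in treated libraries. These groups overlapped, and the log2 fold change was 0.39 (SE 0.18, edgeR adjusted p = 0.182) before and 0.12 after the correction.

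The small TIM chaperones form hexamers in the intermembrane space, Timm9 with Timm10 and Timm8 proteins with Timm13, that shield hydrophobic precursors on their way to either membrane. Of 5 tested members of this group 3 rose (Timm13, Timm8a1 and Timm10) and 0 fell, and 4 had groups that did not overlap in FPKM, all higher in treated livers. Over all genes tested, 9.04% did not overlap with higher and 9.06% with lower treated values (18.1% in all), and 8 of the 22 members did so higher and 0 lower. Timm13 (chromosome 10, 80899450 to 80900969, minus strand, protein coding) stood at 18.5, 18.9, 19.3 and 15.9 FPKM in controls and 36.3, 38.4, 49.8 and 46.7 in treated libraries. Again the groups were far apart, with the lowest treated library well above the highest control. The mean rose from 18.1 ± 1.54 to 42.8 ± 6.48 FPKM (SD, n = 4), a log2 fold change of 1.29 (SE 0.15, edgeR adjusted p = 0.0038).

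The rise of Timm13 was smaller after the correction, with a log2 fold change of 0.84 (SE 0.14, edgeR adjusted p = 0.0184), and it was called in all 23 alternative fits. Its exons overlap those of Tmprss9 on the other strand, which the library kit does not tell apart, and Tmprss9 had 0 to 6 counts per library. As a share of the summed FPKM of these chaperones, Timm13 took 16.97% to 19.3% in controls and 25.1% to 31.6% in treated libraries, and Timm8b 45.0% to 50.9% and 36.9% to 39.4%. These shares were chosen after the values of Timm13 were seen.

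Timm8a1 (chromosome X, 134537256 to 134541865, minus strand), whose human counterpart is mutated in a deafness and dystonia syndrome, rose as well. It stood at 15.2, 14.1, 16.9 and 13.7 FPKM in controls and 24.6, 19.3, 22.6 and 22.3 in treated libraries. No treated library fell among the controls, and the log2 fold change was 0.61 (SE 0.14, edgeR adjusted p = 0.0264). The corrected log2 fold change of Timm8a1 was 0.53 (edgeR adjusted p = 0.0566), and without controls 2 and 4 it was 0.47 (edgeR adjusted p = 0.0884), so the call was lost in both fits.

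Timm10 (chromosome 2, 84826997 to 84830213, plus strand) stood at 16.5, 18.2, 13.8 and 13.6 FPKM in controls and 24.3, 24.1, 19.4 and 20.6 in treated libraries. The groups did not overlap, though control 2 came close to treated library 3. The log2 fold change of Timm10 was 0.55 (SE 0.13, edgeR adjusted p = 0.0319), falling to 0.15 after the correction (edgeR adjusted p = 0.559), and without controls 2 and 4 it was 0.54 (edgeR adjusted p = 0.072). With single libraries left out, Timm10 was called in 3 and Timm8a1 in 4 of 8 fits, at log2 fold changes of 0.50 to 0.62 and 0.55 to 0.71.

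Timm8b and Timm9 were not called. Timm8b, the most abundant member and at 518 nt the shortest, stood at 48.2, 45.2, 46.1 and 47.7 FPKM in controls and 54.9, 55.9, 62.4 and 54.4 in treated libraries. All treated libraries lay above the controls, but the log2 fold change of 0.32 (SE 0.12, edgeR adjusted p = 0.102) turned to -0.22 after the correction. Exons of Timm8b overlap Nkapd1 on the other strand, which had 182 to 282 counts per library. Timm9, at 2.72 to 4.88 FPKM in controls and 3.67 to 4.60 in treated libraries, had a log2 fold change of 0.18 (SE 0.18).

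**Figure D3:**
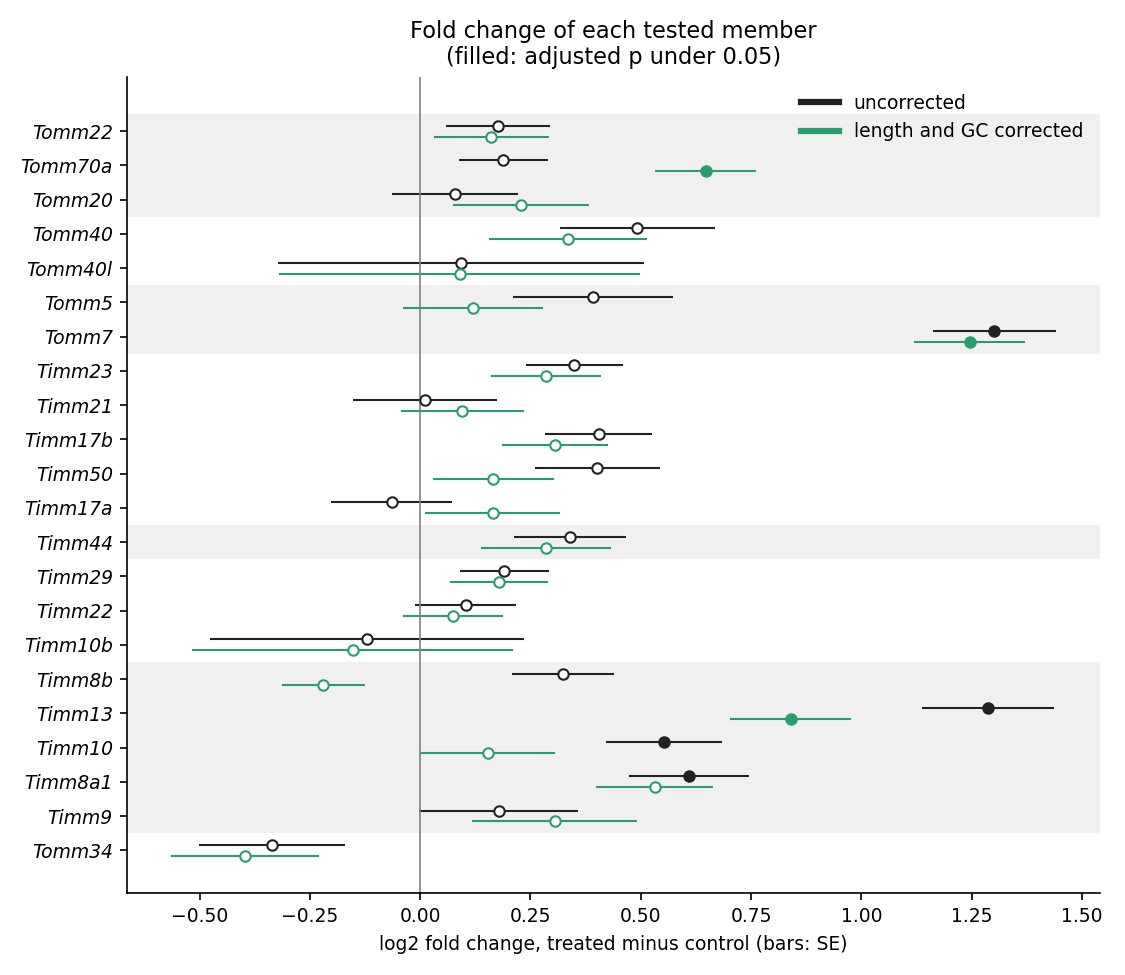
Log2 fold change (treated minus control) with its SE for the 22 tested members by role, uncorrected in black and corrected for length and GC content in green, with filled symbols for adjusted p under 0.05. Tomm7 and Timm13 are filled in both fits, Timm8a1 and Timm10 only before the correction, and Tomm70a only after it.

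Among the outer membrane receptors, 0 of 3 tested genes were called by edgeR, DESeq2 or limma-voom, and 0 had an unadjusted p under 0.05. Tomm22, the central receptor, was the most abundant at 24.1, 22.7, 19.0 and 23.1 FPKM in controls and 26.7, 23.9, 22.9 and 24.2 in treated libraries. These ranges overlapped, and the log2 fold change was 0.18 (SE 0.12, edgeR adjusted p = 0.342). Tomm20, which binds presequences, stood at 14.61 ± 2.06 and 15.01 ± 1.52 FPKM (SD, n = 4), with a log2 fold change of 0.08 (SE 0.14).

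Tomm70a, the receptor for carrier proteins brought by cytosolic chaperones, stood at 16.3 to 18.2 FPKM in controls and 18.4 to 19.4 in treated libraries, without overlap. Its log2 fold change was 0.19 (SE 0.10, edgeR adjusted p = 0.245), and 0.65 after the correction (edgeR adjusted p = 0.0216). With a length of 9777 nt and 38.9% GC it is the longest and least GC-rich of the tested members, and its exons overlap Nit2 on the other strand, which had 895 to 1151 counts in controls 1 to 3, 3506 in control 4 and 2206 to 2508 in treated libraries. The part of these reads in the corrected call was not tested.

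The pore gene Tomm40 (chromosome 7, 19701313 to 19715438) was not called. It stood at 5.10, 4.48, 3.80 and 4.52 FPKM in controls and 5.46, 4.89, 7.29 and 6.72 in treated libraries. Treated library 2 fell below control 1, and the log2 fold change was 0.49 (SE 0.18, unadjusted p = 0.019, edgeR adjusted p = 0.103). Its paralogue Tomm40l was near the lower end of the family, at 0.376 to 0.908 FPKM in controls and 0.271 to 1.07 in treated libraries. Tomm40l shares exon sequence with Nr1i3 on the other strand, which had 262 to 418 counts in controls and 559 to 734 in treated libraries. The part of these reads in the level of Tomm40l was not tested. Neither pore gene was called by DESeq2 or limma-voom.

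In the TIM23 channel, 0 of 5 genes were called by edgeR or limma-voom, and 2 (Timm17b and Timm23) were called higher by DESeq2. Over all genes, DESeq2 called 2213 in either direction and edgeR 1184. In edgeR, 3 of the 5 had an unadjusted p under 0.05, all higher, against 1809 higher and 1968 lower of 12861 genes. Timm23 (chromosome 14, 32180162 to 32201898), the channel-forming subunit, stood at 37.2, 36.6, 33.0 and 31.7 FPKM in controls and 47.2, 41.3, 41.3 and 41.4 in treated libraries. All treated libraries lay above the controls, and the log2 fold change was 0.35 (SE 0.11, edgeR adjusted p = 0.0733). Without control 1 it was 0.42 and was called (edgeR adjusted p = 0.0495). Timm17b, another membrane-embedded subunit, was also without overlap, at 10.1 to 11.2 FPKM in controls and 11.95 to 14.95 in treated libraries (log2 fold change 0.40, SE 0.12, edgeR adjusted p = 0.0645).

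Timm50, the presequence receptor of this complex, stood at 9.23 ± 1.71 and 11.8 ± 0.703 FPKM (SD, n = 4). Timm21, which contacts the TOM complex, stood at 16.2 ± 3.55 and 15.9 ± 1.27 FPKM, and Timm17a at 1.89 ± 0.150 and 1.75 ± 0.168. The log2 fold changes were 0.40 (SE 0.14) for Timm50, 0.01 (SE 0.16) for Timm21 and -0.06 (SE 0.14) for Timm17a.

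Timm44 (chromosome 8, 4259731 to 4275913), which ties the matrix chaperone Hspa9 to the channel, stood at 8.82, 8.64, 9.53 and 11.5 FPKM in controls and 12.5, 12.1, 11.7 and 11.1 in treated libraries. Control 4 lay among the treated libraries, and the log2 fold change was 0.34 (SE 0.13, edgeR adjusted p = 0.116). Without control 4 the log2 fold changes of Timm44 and Timm50 were 0.45 and 0.52, and both were called (edgeR adjusted p = 0.0271 and 0.0222). Leaving out control 4 also raised the calls over all genes, from 1184 to 2330. Timm50 was also called without controls 2 and 4.

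The TIM22 complex had 0 of 3 genes called by edgeR, DESeq2 or limma-voom, and 0 with an unadjusted p under 0.05. Timm29 (chromosome 9, 21592722 to 21595970), a subunit that joins the complex to the outer membrane, stood at 17.1, 16.8, 16.9 and 15.5 FPKM in controls and 19.1, 19.8, 18.0 and 16.8 in treated libraries. Treated library 4 fell among the controls, and the log2 fold change was 0.19 (SE 0.10, edgeR adjusted p = 0.236). The channel gene Timm22 had a log2 fold change of 0.10 (SE 0.11), and Timm10b, at 0.411 ± 0.0817 and 0.366 ± 0.12 FPKM (SD, n = 4), one of -0.12 (SE 0.36).

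Tomm34 (chromosome 2, 164053540 to 164071169), despite its name a cytosolic co-chaperone of Hsp70 and Hsp90, was the member with the lowest log2 fold change. It stood at 2.29, 2.90, 3.34 and 2.39 FPKM in controls and 2.17, 2.41, 1.81 and 2.004 in treated libraries. The groups overlapped through treated library 2, and the log2 fold change was -0.34 (SE 0.17, edgeR adjusted p = 0.211).

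Ratios between paralogues or partners do not depend on library scaling, and 4 were compared by an exact two-sided permutation test over 70 assignments, whose smallest p is 0.0286. The ratio of Timm17a to Timm17b, the alternative subunits of the TIM23 channel, was 0.167, 0.18, 0.183 and 0.186 in controls and 0.134, 0.125, 0.129 and 0.13 in treated libraries. All treated ratios lay below the controls, a log2 difference of -0.47 (exact p = 0.0286, Benjamini-Hochberg adjusted p = 0.114 over 4 ratios). The Timm17a gene is 7893 nt long and Timm17b 2557 nt, and the difference of their fitted log2 fold changes was -0.47 before and -0.14 after the correction.

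The ratio of Timm8a1 to Timm8b stood at 0.321 ± 0.0338 in controls and 0.391 ± 0.0463 in treated livers (SD, n = 4; log2 difference 0.28, exact p = 0.0857, adjusted p = 0.114). Timm9 to Timm10 stood at 0.247 ± 0.0435 and 0.192 ± 0.0134 (log2 difference -0.35, exact p = 0.0571, adjusted p = 0.114), and Tomm40 to Tomm40l at 8.90 ± 3.81 and 13.6 ± 8.86 (log2 difference 0.46, exact p = 0.514). No ratio passed the adjusted threshold. With 4 ratios adjusted together, a lone ratio at the smallest exact p of 0.0286 could not pass it. The result for Timm17a to Timm17b, which stood at that p, therefore does not show a lack of difference. After the correction the difference of fitted log2 fold changes was 0.75 for Timm8a1 against Timm8b and 0.15 for Timm9 against Timm10, the latter with its sign turned.

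**Figure D4:**
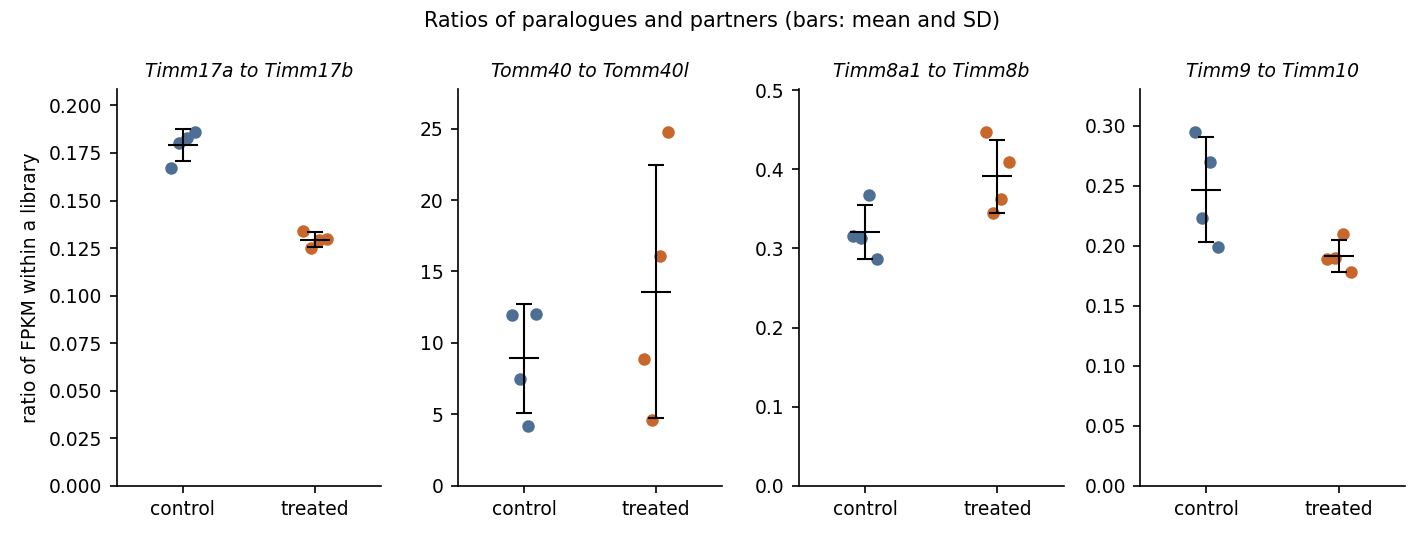
Ratio of FPKM within each library for 4 pairs, each axis from 0, with controls in blue, treated livers in orange and black bars for the mean and SD. The Timm17a to Timm17b points of the groups do not overlap (0.167 to 0.186 against 0.125 to 0.134), and the other pairs overlap.

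The same pathway needs genes with other names, of which a list of 25 was set beside the members. All were tested, 6 were called higher (Gfer, Romo1, Immp2l, Samm50, Grpel1 and Dnlz) and 0 lower, and no other tool called one lower. Over all genes tested, 5.46% were called higher and 3.75% lower. At an unadjusted p under 0.05, 12 partners stood higher and 0 lower, against 1809 higher and 1968 lower of 12861 genes. Gfer, the sulfhydryl oxidase that reoxidises the intermembrane space import receptor and is also known as augmenter of liver regeneration, stood at 10.4, 11.2, 10.2 and 8.89 FPKM in controls and 16.3, 18.1, 15.6 and 15.4 in treated libraries. Its log2 fold change was 0.73 (SE 0.10, edgeR adjusted p = 0.00667), and it was called in all 23 alternative fits. Chchd4, the import receptor it serves, had a log2 fold change of 0.61 (SE 0.19, edgeR adjusted p = 0.0705) and was not called.

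Romo1, a partner of the TIM23 channel, stood at 14.02, 18.2, 18.8 and 18.2 FPKM in controls and 24.8, 31.1, 45.6 and 35.9 in treated libraries (log2 fold change 1.04, SE 0.20, edgeR adjusted p = 0.0172). At a length of 747 nt and 59.7% GC, Romo1 had a corrected log2 fold change of 0.37 (edgeR adjusted p = 0.249). Immp2l, an inner membrane peptidase, rose from 8.51 ± 1.89 to 13.9 ± 1.13 FPKM (SD, n = 4), with a log2 fold change of 0.75 before and 0.76 after the correction (edgeR adjusted p = 0.025 and 0.0267). Grpel1, which frees ADP from the import motor chaperone, rose from 34.2 ± 1.91 to 45.3 ± 2.39 FPKM (log2 fold change 0.45, edgeR adjusted p = 0.0399, corrected 0.54). With single libraries left out, Immp2l was called in 3 and Grpel1 in 1 of 8 fits, and Grpel1 was called in 11 and Immp2l in 17 of all 23 alternative fits.

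Samm50, the core of the machinery that inserts barrel proteins into the outer membrane, and Dnlz, which keeps Hspa9 soluble, had log2 fold changes of 0.63 and 0.54 (edgeR adjusted p = 0.0386 and 0.0419). Both lost their call after the correction, at corrected log2 fold changes of 0.66 for Samm50 and 0.38 for Dnlz. With single libraries left out, Samm50 was called in 3, Dnlz in 2 and Romo1 in 7 of 8 fits. Of all 23 alternative fits, Samm50 was called in 14, Dnlz in 12 and Romo1 in 18. Hspa9 itself, the motor chaperone, stood at 178 ± 23.0 and 181 ± 6.17 FPKM (SD, n = 4; edgeR adjusted p = 0.731). The correction left 3 of the 25 called higher (Gfer, Immp2l and Grpel1). Without controls 2 and 4 the called partners were Gfer, Immp2l and Samm50, and Grpel1 was at 0.47 (edgeR adjusted p = 0.0745) and Romo1 at 1.08 (edgeR adjusted p = 0.0503).

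**Figure D5:**
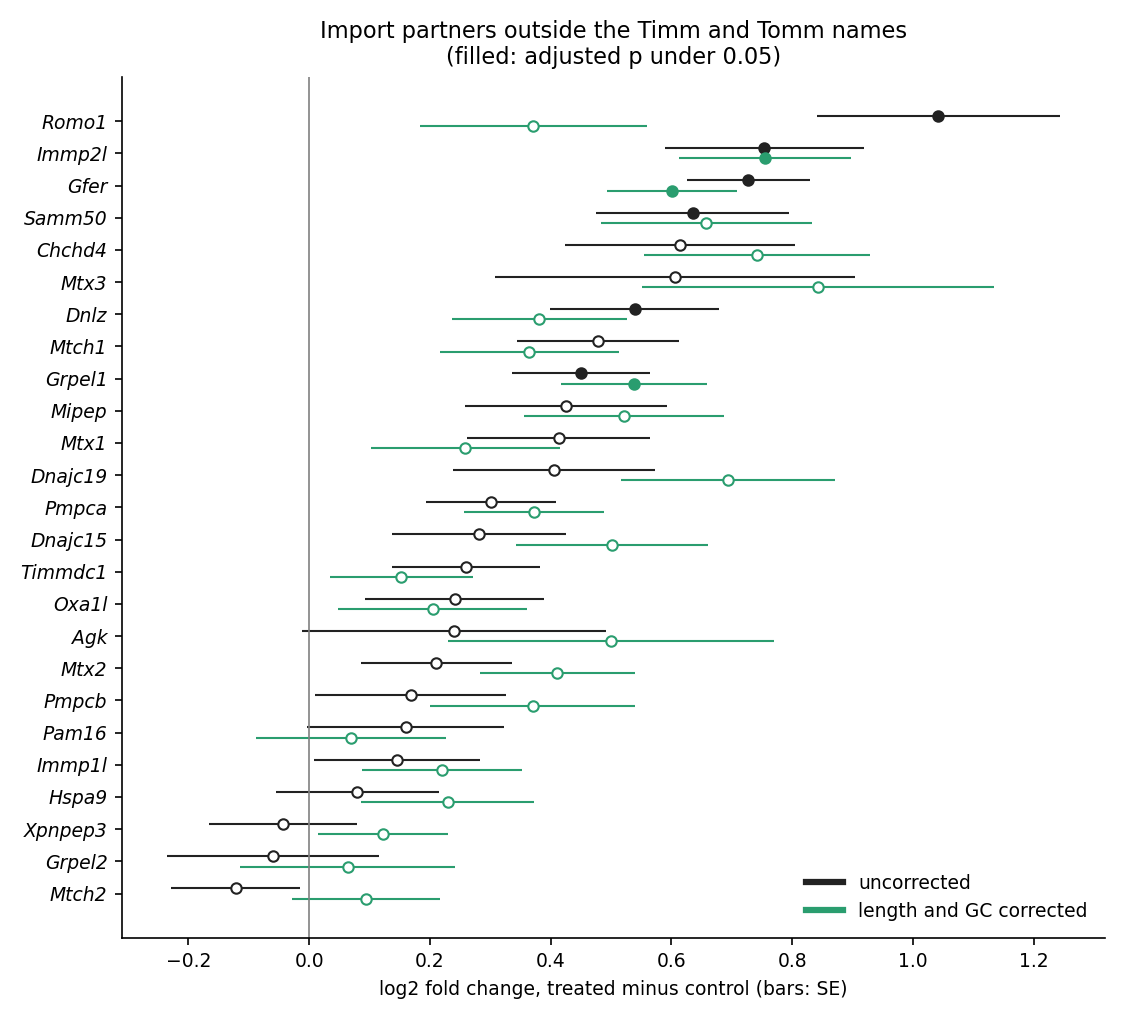
Log2 fold change (treated minus control) with its SE for the 25 import partners, uncorrected in black and corrected for length and GC content in green, with filled symbols for adjusted p under 0.05. Romo1 falls from 1.04 to 0.37 with the correction, while Gfer, Immp2l and Grpel1 are filled in both fits.

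The import members were set beside related mitochondrial families from the same fit. The median log2 fold change was 0.26 over the 22 import members, 0.30 over the 25 partners, 0.32 over 77 mitochondrial ribosomal proteins and 0.57 over 36 complex I subunits, against -0.04 over all genes tested. Called higher were 18.2% of import members, 24% of partners, 28.6% of mitochondrial ribosomal proteins (22 genes) and 58.3% of complex I subunits (21 genes). Over all genes tested the share was 5.46%. None of these families had a gene called lower in edgeR, and at an unadjusted p under 0.05 only the ribosomal proteins had any lower (1 gene). The median length was 2862 nt in the import members, 4030 nt in the partners, 2255 nt in the ribosomal proteins and 1532 nt in complex I, and after the correction the median log2 fold changes were 0.17, 0.37, 0.30 and 0.45. The partners' median was thus higher after the correction and those of the other families lower. The corrected fit called higher 3 of 22 import members, 3 of 25 partners, 13 of 77 ribosomal proteins and 11 of 36 complex I subunits. Over all genes tested it called 2.60% higher. The differences between families were not tested.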

How the data were processed

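Liver RNA was sequenced from 4 treated and 4 control ICR mouse libraries, grouped by the treatment label. Per the labels' protocols, poly-A RNA was selected after Trizol extraction and libraries were made with the NEBNext Ultra RNA kit, which does not mark strand. Exons of Timm17b, Timm23, Timm9, Tomm40, Timm29 and Timm10b overlap other genes too, and reads of near-identical copies may be shared. The authors deposited raw counts and FPKM per gene and library. The submitters' processing notes name the build GRCm38 and the tools HTSeq 0.13.5, HISAT2 and DESeq2 1.32.0, with no role for any. The annotation release is not given in the sources used here.

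Counts were tested in R 4.3.3 with edgeR 4.0.16 (filterByExpr at a minimum count of 10 and total of 15, TMM factors, robust quasi-likelihood test, group as the only term), on the whole table. Totals of 15864399 to 20159132 counts give a precision limited mainly by 4 libraries a group. Gene length was recovered from the deposited FPKM and counts. Positions and GC content came from GENCODE on GRCm38, which gave GC for 24540 of 24547 genes. The corrected fit added an offset from a spline (5 degrees of freedom each) over log length and GC content per library. No pair of libraries had near-identical counts (chi-square per degree of freedom at least 31.6). Same-numbered libraries correlated at -0.01 to 0.18 in their deviations from group means. Such low values gave no clear sign of pairing by number but cannot exclude it.

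Alternatives were other scaling, filters, DESeq2 1.42.0, limma 3.58.1 on counts (voom) and on log2(FPKM + 1) and log2(FPKM + 0.1) at a mean FPKM of at least 0.5 or none, a replicate block, other thresholds and left-out libraries. The members and lists were chosen with earlier results of these data known. All members are accounted for, and every library's value is given for called members and for the most abundant gene of a role group with none called. Called partners are named, up to 8, and others were named after their values were seen.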

Additional observations from a re-analysis of the deposited data

Results flagged for a closer look

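With 52 groups of 4 values checked (22 members and 4 ratios in each group), 3 held a library far from its 3 neighbours, and chance flags about 1 in 20. Timm23 stood at 47.2 FPKM in treated library 1, against 41.3 to 41.4 in the other treated libraries. Tomm7 stood at 10.8 FPKM in control 1, against 12.4 to 12.6 in the other controls. Timm29 stood at 15.5 FPKM in control 4, against 16.8 to 17.1 in the other controls. Timm23 was not called with all libraries or without treated library 1, and Tomm7 was called without control 1.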

How the results depend on the processing

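Tomm7 and Timm13 were called in all 23 alternative fits, and 0 members or partners were called lower in any. The count of members called higher, 4 in the main test, was 2 with limma on log2(FPKM + 1) and no filter, 2 at an adjusted p under 0.01, and 2 to 6 with single libraries left out (2 without treated library 1, 3 or 4). The partners called higher, 6 in the main test, were 1 with that unfiltered limma fit, 3 with the length and GC offset, 3 without controls 2 and 4, 1 at an adjusted p under 0.01, and 1 to 9 with single libraries left out (1 without treated library 3, 2 without control 2, control 3 or treated library 4, 3 without treated library 1). Calls over all genes, 1184 in the main test, were 2213 with DESeq2, 322 with that unfiltered limma fit, 477 with the length and GC offset, 428 with the replicate block and offset, 145 at 0.01, 2272 at 0.1, and 183 (without treated library 3) to 2330 (without control 4) with single libraries left out, among them 397 to 584 without control 2, control 3 or treated library 1, 2 or 4. The members' median log2 fold change, 0.26, was 0.17 with the offset, 0.18 with the replicate block and offset, and 0.22 to 0.32 with single libraries left out. The cause of these changes was not tested.

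The replicate block alone called the same 4 members (Tomm7 at log2 1.29, Timm13 at 1.27, Timm8a1 at 0.61 and Timm10 at 0.56), and the block with the offset called Tomm7, Timm13, Timm8a1 (0.53, adjusted p = 0.0468) and Tomm70a (0.65), and not Timm10 (0.16, adjusted p = 0.452). The offset without the block did not call Timm8a1 (adjusted p = 0.0566). Control and treated libraries of one number did not each correlate best with each other.

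Some uncalled members changed sign, most of them near 0. Timm21 (0.01) was at -0.0332 by library size alone, -0.0046 with upper quartile factors, -0.01 in the 3 limma fits on FPKM (-0.0128, -0.0125 and -0.0128), and -0.0513 to 0.19 with single libraries left out. Timm8b, which was not near 0 (0.32, SE 0.12), was at -0.22 with the offset, with (-0.2205) or without (-0.2192) the block, and Timm17a (-0.06) at 0.15 and 0.16, and -0.14 to 0.0144 with single libraries left out. Tomm40l (0.09) was at -0.0097 with limma on log2(FPKM + 0.1), -0.15 without controls 2 and 4, and -0.28 to 0.41 with single libraries left out, and Timm10b at -0.26 to 0.11. Without controls 2 and 4, Tomm20 was at -0.0723 and Timm9 at -0.0273.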
